A study of Rattus norvegicus with 6 samples.

Results

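Macrophages are tissue phagocytes that can live among the cells of an organ or be grown along with them when the organ is dispersed. They need signalling through the CSF-1 receptor, take up debris and lipid through scavenger receptors, and read antibodies, complement and microbial products through surface receptors that signal through shared adaptor proteins. Their genes fall into those that mark the lineage wherever it lives, those typical of resident, debris-clearing macrophages, and those that move with activation. The list described here holds 45 such genes, of which 44 had a probe set named for that gene alone on the array, out of 14506 genes tested. By class, 22 were pan-macrophage genes, 7 resident-like genes and 14 activation genes, and Ccn3, a secreted matricellular protein that is no macrophage marker, was kept apart. The scavenger receptor gene Msr1 had no probe set under its symbol and was not analysed here.

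The cells were dispersed from the carotid body of adult rats, the oxygen-sensing organ at the carotid fork, and grown for 10 days in neural crest medium as neurospheres, which are floating clusters of cells. Of the arrays, 3 carried RNA of spheres labelled undifferentiated, grown with FGF, IGF-1, EGF and ET-1 in normal oxygen. The other 3 carried RNA of spheres labelled differentiated, grown without those mitogens at 3% oxygen, so mitogens and oxygen changed together. No genotype, strain or exact age was given in the labels, and none tells whether a group's arrays stem from different cultures or rats; its p-values therefore reflect spread between arrays, which may be technical. The series asked which molecular pathways differ between neuron-rich spheres and spheres rich in undifferentiated cells.

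The 6 arrays were alike in range, with medians between 5.05 and 5.13 on the log2 scale of the deposited values and lower quartiles between 3.37 and 3.52. Arrays of the same label correlated at 0.986 to 0.993 over all probe sets (Pearson's r, across probe sets) and arrays of different labels at 0.959 to 0.970. The glomus cell enzyme Th, tyrosine hydroxylase, read 13.76, 13.59 and 13.91 in the arrays labelled undifferentiated and 10.73, 11.32 and 10.65 in those labelled differentiated, which goes against the labels. All 7 glomus cell genes measured were lower in the arrays labelled differentiated. Whether the labels, and the oxygen and mitogens stated with them, match the arrays was not tested. Directions below are therefore those of the labels, labelled differentiated against labelled undifferentiated. Array values are given in the order of replicates 1, 2 and 3. A gene is said to have risen or fallen where limma's moderated test gave an adjusted p under 0.05 over all 14506 genes. In RNA from whole spheres, fewer macrophages and less of a transcript per macrophage cannot be told apart.

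Of the 44 members, 13 changed, and the share of all genes that changed was 29.5%, so the list as a whole changed about as often as the background. Higher in the arrays labelled differentiated were 6 members (background 14.7%), namely Tyrobp, Ccn3, Cd80, Cd14, Vsig4 and Spi1. Lower were 7 members (background 14.9%), namely Apoe, Cd163, Cd36, Slc11a1, Arg1, Cd53 and Fcgr2b. The groups of 3 arrays did not overlap in 14 members, these 13 and Tlr4, against 42.3% of all genes. The median difference was -0.06 over all members, -0.04 for pan-macrophage, -0.12 for resident-like and -0.07 for activation genes, beside 0.06 over all genes. The differences ran from -2.26 to 1.24, so medians near 0 held members that moved apart.

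These medians have no settled sign. The pan-macrophage median was 0.10 without undifferentiated replicate 1, 0.03 without differentiated replicate 1, 0.12 without differentiated replicate 3 and -0.17 without differentiated replicate 2. The resident-like median was 0.03 without undifferentiated replicate 1, 0.08 without differentiated replicate 3 and -0.36 without differentiated replicate 2. The activation median was 0.00282 without undifferentiated replicate 2 and -0.19 without undifferentiated replicate 3.

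**Figure D1:**
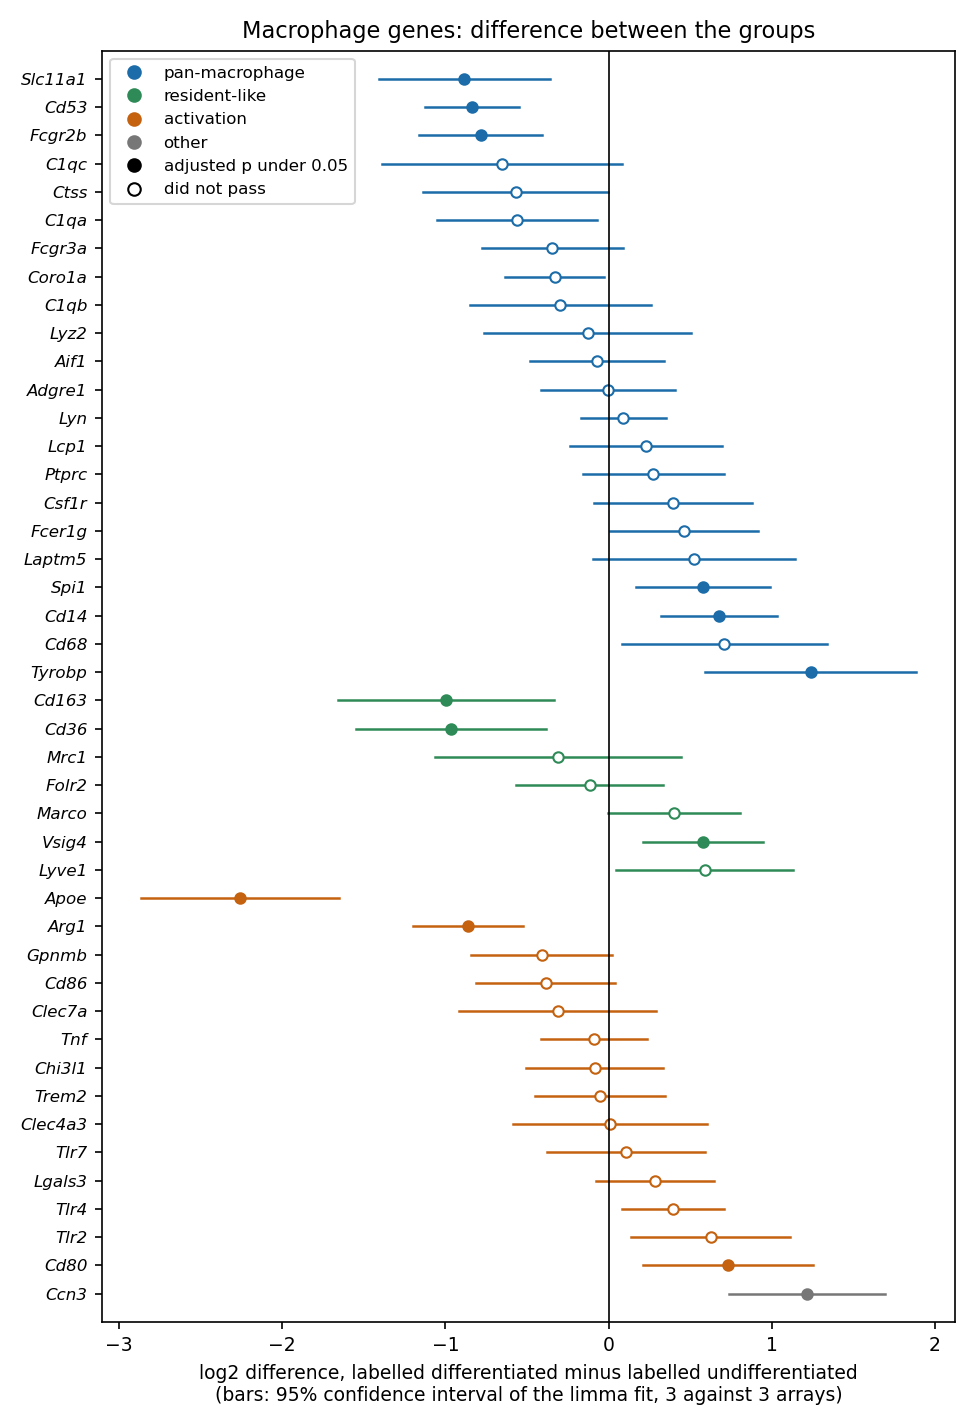
Log2 difference (labelled differentiated minus labelled undifferentiated) of each of the 44 members, ordered within class, with the 95% confidence interval of the limma fit over 3 against 3 arrays. Filled points passed at an adjusted p under 0.05; they lie on both sides of 0 in the pan-macrophage, resident-like and activation classes.

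Among the regulators of the lineage, Spi1 encodes PU.1, the transcription factor that macrophages need to form. It read 5.85, 5.57 and 5.32 in the arrays labelled undifferentiated and 6.08, 6.53 and 5.86 in those labelled differentiated. The groups only just failed to overlap, the lowest differentiated array lying beside the highest undifferentiated one. Spi1 rose by 0.58 ± 0.19 (SE), or 1.49-fold, with a limma adjusted p of 0.0371. The call was lost without undifferentiated replicate 2 (0.57, adjusted p = 0.0937) or 3 (0.45, adjusted p = 0.148) and likewise without differentiated replicate 1 (0.61, adjusted p = 0.0681) or 2 (0.39, adjusted p = 0.121). It was also lost with eBayes without the trend (adjusted p = 0.0507) and with array weights (0.51, adjusted p = 0.0585).

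Csf1r, the receptor for the growth factors CSF-1 and interleukin-34, read 8.60, 8.32 and 7.86 against 8.36, 9.16 and 8.44. Its groups overlapped, and its difference of 0.40 ± 0.22 (SE) did not pass (limma adjusted p = 0.222; 95% confidence interval -0.09 to 0.88). Without differentiated replicate 2 the difference was 0.14. Both ligands of this receptor changed, in opposite directions. Csf1 read 8.01, 7.37 and 7.26 against 9.29, 8.76 and 9.06 and rose by 1.49 ± 0.19 (limma adjusted p = 0.000134). Il34 read 6.34, 5.90 and 6.30 against 4.64, 5.11 and 4.41 and fell by 1.46 ± 0.19 (limma adjusted p = 0.000139).

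PU.1 is known to bind purine-rich sites around GAGGAA, often GAGGAAG or GAGGAAGT, and its gene is itself a member, so the promoter windows of the members were searched for these nested words on both strands. The windows run from 250 bases before to 50 after a gene's start in RefSeq on the GRCr8 build, and 32 of the 44 members had at least 1 window, 35 windows in all. GAGGAA was in 22 of the 35 windows (62.9%), against 27.6% of all 33469 windows. GAGGAAG was in 16 (45.7%), against 12.4% of all, and GAGGAAGT in 3 (8.57%), against 2.42% of all. A match is a string of letters, not a measured binding site. Of the 7 changed members that had a window, GAGGAAG was found for Cd14, which rose, and for Cd36 and Cd53, which fell; Cd80, Vsig4, Apoe and Cd163 had no match to it. Of the 25 members with a window that did not pass, 13 held the word. The word was thus found for members that rose, that fell and that did not pass.

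The 3 windows with the longest word are shown because they carry all of the letters searched. They belong to Cd53, which fell, and to Ctss and Fcgr3a, whose differences of -0.57 and -0.35 did not pass. Each is given 5′ to 3′ on the gene's own strand, with the match in capitals. All 3 matches read on the opposite strand, as ACTTCCTC, and begin 46, 17 and 56 bases before the start of Cd53, Ctss and Fcgr3a. The windows lie at chr2:197087847-197088146 (minus strand), chr2:185775146-185775445 (plus strand) and chr13:85782386-85782685 (plus strand).
Cd53: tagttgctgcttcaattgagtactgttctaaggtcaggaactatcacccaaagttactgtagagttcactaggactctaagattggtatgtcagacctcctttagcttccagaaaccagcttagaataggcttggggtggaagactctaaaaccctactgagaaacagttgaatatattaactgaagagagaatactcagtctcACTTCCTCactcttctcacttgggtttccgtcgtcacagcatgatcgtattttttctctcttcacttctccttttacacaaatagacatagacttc
Ctss: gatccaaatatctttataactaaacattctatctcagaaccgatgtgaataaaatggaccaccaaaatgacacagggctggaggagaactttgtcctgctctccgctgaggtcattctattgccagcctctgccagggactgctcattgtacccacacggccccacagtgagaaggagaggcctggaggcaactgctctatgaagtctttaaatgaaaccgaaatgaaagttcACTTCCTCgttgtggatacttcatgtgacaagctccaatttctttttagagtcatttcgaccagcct
Fcgr3a: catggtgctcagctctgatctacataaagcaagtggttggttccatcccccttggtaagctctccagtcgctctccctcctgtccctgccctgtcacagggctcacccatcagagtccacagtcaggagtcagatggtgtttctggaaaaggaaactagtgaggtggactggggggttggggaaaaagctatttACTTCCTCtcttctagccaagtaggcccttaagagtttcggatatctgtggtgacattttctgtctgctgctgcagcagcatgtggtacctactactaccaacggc

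Among the 8 leukocyte surface and cytoskeleton genes, 1 fell and 0 rose, where 14.9% of all genes fell and 14.7% rose. Cd53, a tetraspanin of leukocytes, read 7.58, 7.32 and 7.11 in the arrays labelled undifferentiated and 6.41, 6.47 and 6.62 in those labelled differentiated. The groups were well apart and each was tight. Cd53 fell by 0.84 ± 0.13 (SE), or 1.79-fold, with a limma adjusted p of 0.000516, with a range of -0.95 to -0.72 when each array was left out. Ptprc, the common leukocyte antigen CD45, read 6.88, 6.35 and 6.17 against 6.56, 7.10 and 6.56, and its overlapping groups differed by 0.28 (limma adjusted p = 0.348).

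Coro1a, an actin-binding coronin of leukocytes, differed by -0.33 (limma adjusted p = 0.102) and passed without undifferentiated replicate 3 (-0.46, adjusted p = 0.0329). Laptm5, a lysosomal membrane protein of blood cells, differed by 0.52 and Lcp1, the actin bundler L-plastin, by 0.23, without passing. Aif1, the actin-binding protein IBA1, differed by -0.07, the kinase Lyn by 0.09 and Adgre1, the F4/80 antigen, by -0.00245. The 95% confidence interval of Adgre1 ran from -0.41 to 0.41, so a change of that size in either direction is not shown to be absent.

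The adaptors and Fc receptors were divided. Tyrobp, the adaptor DAP12 that carries signals of many myeloid receptors, read 7.69, 7.07 and 6.78 against 8.04, 9.16 and 8.05. All 3 arrays labelled differentiated lay above the others, with replicate 2 far above its own group. Tyrobp rose by 1.24 ± 0.29 (SE), or 2.36-fold, with a limma adjusted p of 0.00762. The rise was 0.87 without that array (adjusted p = 0.00905), and Tyrobp passed with each array left out. Fcer1g, the related adaptor of Fc receptors, read 8.78, 8.58 and 8.04 against 8.69, 9.35 and 8.74, overlapped, and differed by 0.46 ± 0.21 (limma adjusted p = 0.126). Trem2, a receptor that signals through Tyrobp, read 5.70, 5.09 and 4.99 against 5.13, 5.25 and 5.24 and differed by -0.05 ± 0.18 (limma adjusted p = 0.864).

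Fcgr2b, the inhibitory receptor for immunoglobulin G, went the other way from Tyrobp. It read 6.15, 5.76 and 5.68 against 5.36, 5.04 and 4.84. Every array labelled differentiated was lower than every array labelled undifferentiated, and Fcgr2b fell by 0.78 ± 0.17 (SE), or 1.72-fold, with a limma adjusted p of 0.00473, with a range of -0.92 to -0.64 when each array was left out. Fcgr3a, an Fc receptor that depends on Fcer1g, differed by -0.35 (limma adjusted p = 0.232). Receptors of this family are near-identical in places, and how the probe sets separate them is not known here.

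The 3 chains of complement C1q, which macrophages secrete and which tags debris, all had differences below 0, as had 6145 of all 14506 genes. With all 6 arrays 0 of the 3 passed (background 29.5%). C1qa read 7.65, 8.05 and 7.36 against 7.05, 7.62 and 6.71 (-0.56 ± 0.22, limma adjusted p = 0.0845). C1qb differed by -0.30 ± 0.25 (adjusted p = 0.44). C1qc read 8.47, 9.11 and 7.98 against 7.78, 8.63 and 7.20 (-0.65 ± 0.33, adjusted p = 0.183). In each chain replicate 2 was the highest array of both groups. Without differentiated replicate 2 all 3 passed, at -0.81 (adjusted p = 0.00655), -0.65 (adjusted p = 0.00716) and -1.03 (adjusted p = 0.0137), and C1qa also passed without undifferentiated replicate 3 (-0.73, adjusted p = 0.0499).

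Of the 4 lysosomal and lysozyme genes of macrophages, 1 fell (background 14.9%), Slc11a1, and 0 rose (background 14.7%). Cd68, the macrophage lysosomal glycoprotein, read 8.89, 8.61 and 8.21 against 8.74, 10.06 and 9.04, and its difference of 0.71 ± 0.28 (SE) did not pass (limma adjusted p = 0.0897). It was 0.98 without differentiated replicate 1 (adjusted p = 0.0269) and 0.32 without differentiated replicate 2. Slc11a1, the phagosomal metal transporter NRAMP1, read 6.24, 5.53 and 5.18 against 4.94, 4.85 and 4.51. Its groups did not overlap, and it fell by 0.88 ± 0.24 (limma adjusted p = 0.0153). That call was lost without differentiated replicate 3 (-0.75, adjusted p = 0.0633), and the fall was -0.59 without undifferentiated replicate 1.

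Ctss, the protease cathepsin S that trims the invariant chain, read 8.15, 8.25 and 7.46 against 7.22, 7.98 and 6.95 (-0.57 ± 0.26, limma adjusted p = 0.13). Leaving out undifferentiated replicate 3 (-0.82, adjusted p = 0.0383) or differentiated replicate 2 (-0.87, adjusted p = 0.008) let it pass. Lyz2, lysozyme, differed by -0.13 ± 0.29 (adjusted p = 0.79). Cd14, the coreceptor for bacterial lipopolysaccharide, read 9.07, 9.12 and 8.67 against 9.39, 9.96 and 9.53. All 3 arrays labelled differentiated were the higher ones, and Cd14 rose by 0.68 ± 0.16, a 1.60-fold difference (limma adjusted p = 0.00758), with a range of 0.51 to 0.80 when each array was left out.

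**Figure D2:**
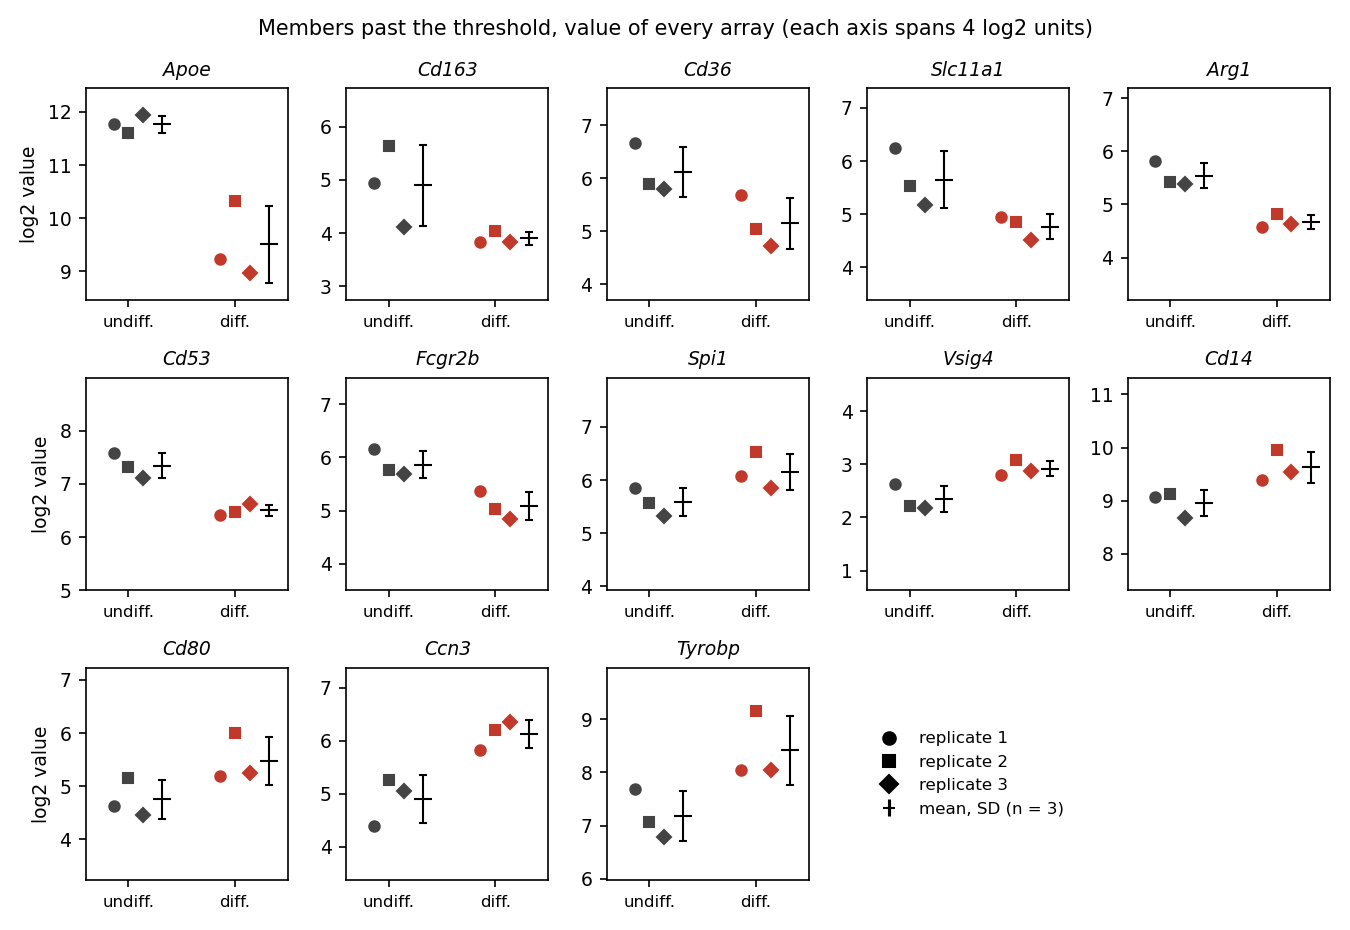
Log2 value of every array for the 13 members past the threshold, ordered from the largest fall (Apoe) to the largest rise (Tyrobp); grey, labelled undifferentiated; red, labelled differentiated; marker shape, replicate number; bars, mean and SD (n = 3). The groups did not overlap in any of the 13, and differentiated replicate 2 stands above its group in Tyrobp, Cd80 and Apoe.

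Of the 7 resident-like genes measured, 1 rose and 2 fell, beside 14.7% and 14.9% of all genes; so few genes do not set the class apart. Cd163, the scavenger receptor for haemoglobin bound to haptoglobin, read 4.94, 5.64 and 4.11 in the arrays labelled undifferentiated and 3.82, 4.05 and 3.83 in those labelled differentiated. The undifferentiated arrays were spread widely and the differentiated ones were tight and lower. Cd163 fell by 1.00 ± 0.30 (SE), or 2.00-fold, with a limma adjusted p of 0.027. Its mean over the 6 arrays was 4.40, under the level of 4.44 used as a cut for dim genes. The call was lost without undifferentiated replicate 1 (-0.98, adjusted p = 0.0691) or 2 (-0.63, adjusted p = 0.0852) and likewise without differentiated replicate 1 (-0.96, adjusted p = 0.0788) or 3 (-0.96, adjusted p = 0.0767).

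Cd36, a scavenger receptor for oxidised lipid that fat and endothelial cells also make, read 6.67, 5.90 and 5.79 against 5.68, 5.04 and 4.73. The highest differentiated array lay just below the lowest undifferentiated one. Cd36 fell by 0.97 ± 0.26 (limma adjusted p = 0.0166). It no longer passed when undifferentiated replicate 1 (-0.69, adjusted p = 0.0617) or differentiated replicate 3 (-0.76, adjusted p = 0.0695) was left out. Vsig4, a complement receptor of resident macrophages, read 2.62, 2.21 and 2.18 against 2.81, 3.07 and 2.88. All 6 values were below the lower quartile of their array, so Vsig4 was not shown to lie above background, and its rise of 0.58 ± 0.17 (adjusted p = 0.0217) is the change of a dim probe set. That call was lost without undifferentiated replicate 2 (0.52, adjusted p = 0.0761) or 3 (0.50, adjusted p = 0.0931) and likewise without differentiated replicate 2 (0.50, adjusted p = 0.0614).

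The other resident-like genes did not pass with all 6 arrays. Mrc1, the mannose receptor CD206, read 7.94, 8.15 and 7.00 against 7.14, 8.19 and 6.84 and differed by -0.31 ± 0.34 (SE, limma adjusted p = 0.566), with a 95% confidence interval of -1.06 to 0.44. Its differentiated replicate 2 was the highest of all 6 arrays, and the difference was -0.71 without it (adjusted p = 0.076). Folr2, a folate receptor of resident macrophages, read 6.75, 6.33 and 6.31 against 6.25, 6.83 and 5.96 and differed by -0.12 (adjusted p = 0.732). Its groups overlapped in the same way, with differentiated replicate 2 on top.

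Lyve1, a hyaluronan receptor shared by perivascular macrophages and lymphatic endothelium, read 4.01, 3.94 and 3.74 against 3.82, 4.85 and 4.78. Differentiated replicate 1 lay among the undifferentiated arrays. The difference of 0.59 ± 0.24 (SE) did not pass (limma adjusted p = 0.101), and it was 0.92 without differentiated replicate 1 (adjusted p = 0.00216). Marco, a collagen-domain scavenger receptor, read 4.11, 4.62 and 3.93 against 4.49, 4.68 and 4.69 and differed by 0.40 (limma adjusted p = 0.133). It passed without undifferentiated replicate 2 (0.60, adjusted p = 0.0184). Cd163 and Cd36 thus fell while Mrc1, Folr2, Lyve1 and Marco did not pass; the differences between these genes were not tested.

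Of 14 activation genes, 1 rose and 2 fell, beside 14.7% and 14.9% of all genes, so the class changed no more often than the background. Apoe, the lipid carrier apolipoprotein E, had the largest change of the 44 members. It read 11.76, 11.61 and 11.94 in the arrays labelled undifferentiated and 9.23, 10.33 and 8.97 in those labelled differentiated, far apart, with differentiated replicate 2 above its group. Apoe fell by 2.26 ± 0.27 (SE), or 4.79-fold, with a limma adjusted p of 9.02e-05, and by 2.67 without that array. Glia and other cells also make Apoe, so it is no measure of macrophages alone.

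The other lipid and lysosome associated genes did not pass with all 6 arrays, and their difference from Apoe was not tested. Gpnmb, a lysosomal glycoprotein of phagocytes and pigment cells, read 11.08, 10.68 and 10.32 against 10.27, 10.60 and 9.97 and differed by -0.41 ± 0.20 (SE, limma adjusted p = 0.154). With undifferentiated replicate 3 left out it passed (-0.60, adjusted p = 0.0472), as it did with differentiated replicate 2 left out (-0.57, adjusted p = 0.0482). Lgals3, the lectin galectin-3, read 9.54, 8.76 and 9.17 against 9.41, 9.45 and 9.46 and differed by 0.28 (adjusted p = 0.24). The differentiated arrays were nearly equal, the undifferentiated ones spread around them, and Lgals3 passed without undifferentiated replicate 1 (0.48, adjusted p = 0.0253).

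Arg1, the arginase of alternatively activated macrophages and of liver, read 5.81, 5.41 and 5.39 against 4.57, 4.83 and 4.63. The groups were clearly apart, and Arg1 fell by 0.86 ± 0.15 (SE), or 1.82-fold, with a limma adjusted p of 0.00123, with a range of -0.94 to -0.72 when each array was left out. The inflammatory cytokine Tnf differed by -0.09 ± 0.15 (adjusted p = 0.71) and the chitinase-like Chi3l1 by -0.08 ± 0.19 (adjusted p = 0.792). Their 95% confidence intervals were -0.42 to 0.24 and -0.50 to 0.34.

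Of the costimulatory pair, both ligands of CD28 on T cells, Cd80 passed with all 6 arrays and Cd86 did not. Cd80 read 4.63, 5.16 and 4.46 against 5.20, 6.00 and 5.24, with the lowest differentiated array just above the highest undifferentiated one, and rose by 0.73 ± 0.24 (SE, limma adjusted p = 0.0372). The call was lost without undifferentiated replicate 1 (0.67, adjusted p = 0.105) or 3 (0.59, adjusted p = 0.145) and likewise without differentiated replicate 2 (0.47, adjusted p = 0.113). Cd86 read 5.56, 5.54 and 5.40 against 5.10, 5.55 and 4.69 and differed by -0.39 ± 0.19 (adjusted p = 0.173). Without differentiated replicate 2 Cd86 passed as lower (-0.60, adjusted p = 0.0157). The contrast between Cd80 and Cd86 was not tested.

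All 3 Toll-like receptors had differences above 0, as had 8361 of all 14506 genes. With all 6 arrays 0 of the 3 passed (background 29.5%). Tlr2, which reads bacterial lipopeptides, read 4.23, 3.73 and 3.95 against 4.23, 5.10 and 4.46 (0.62 ± 0.22, limma adjusted p = 0.0557). It passed when replicate 1 of either group was left out (undifferentiated, 0.75 with adjusted p = 0.0467; differentiated, 0.81 with adjusted p = 0.0252). Tlr4, which reads lipopolysaccharide together with Cd14, read 5.89, 5.43 and 5.64 against 6.18, 6.04 and 5.93 (0.39 ± 0.14, adjusted p = 0.0596). Its groups did not overlap, and it passed without undifferentiated replicate 1 (0.51, adjusted p = 0.0278), after quantile normalization (adjusted p = 0.049) and after a filter on dim genes (adjusted p = 0.0461). Tlr7, which reads RNA in endosomes, differed by 0.11 (adjusted p = 0.765). The means of Tlr2 and Tlr7 over the 6 arrays were 4.28 and 4.30, under the cut for dim genes. Clec7a, the beta-glucan receptor dectin-1, read 5.83, 5.32 and 5.27 against 4.90, 5.89 and 4.70, overlapped, and differed by -0.31 (adjusted p = 0.459) and passed without differentiated replicate 2 (-0.67, adjusted p = 0.019), while the C-type lectin Clec4a3 differed by 0.01.

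Ccn3, the matricellular protein listed with these genes, read 4.40, 5.27 and 5.06 against 5.82, 6.21 and 6.35. The groups were apart, and Ccn3 rose by 1.22 ± 0.22 (SE), or 2.32-fold, with a limma adjusted p of 0.00132, with a range of 0.96 to 1.40 when each array was left out. Its highest undifferentiated array was replicate 2, whereas in 28 of the 44 members it was replicate 1.

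Replicates lay farther apart in most members than in the typical gene. The residual SD within groups had a median of 0.36 over the 44 members and 0.16 over all genes, a ratio of 2.26, and 43 members lay above the median of all genes. By class the median was 0.38 for pan-macrophage, 0.42 for resident-like and 0.33 for activation genes. All genes grew tighter with level, from a median residual SD of 0.20 among the 20% of genes of lowest mean log2 value to 0.13 among the 20% of highest. The 13 members among the latter had a median of 0.49. Mrc1 (0.66), C1qc (0.65) and Tyrobp (0.56) had the widest residual SDs, and Lyn (0.12), Tnf (0.17) and Cd53 (0.18) the smallest.

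**Figure D3:**
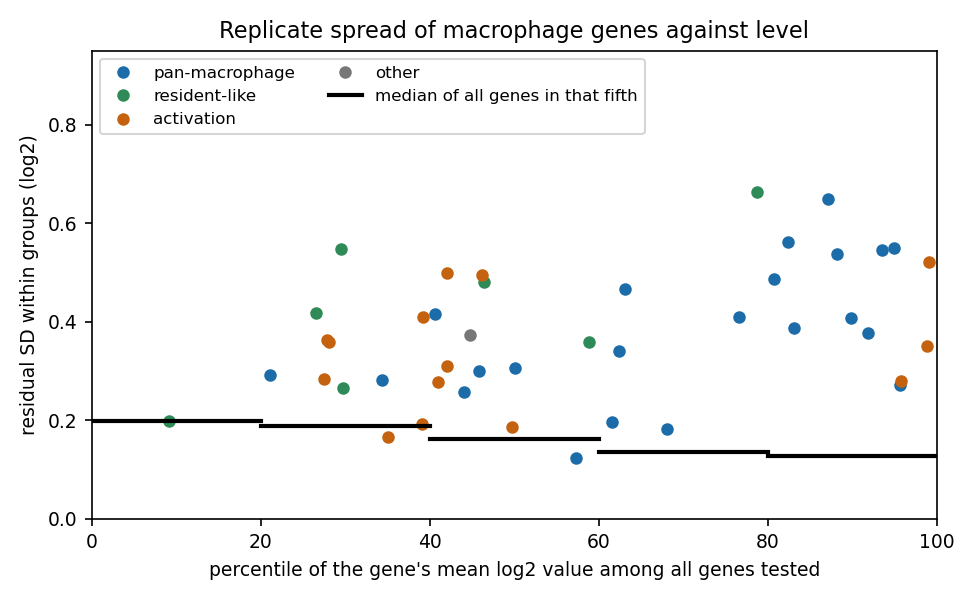
Residual SD within groups (log2) of each member against the percentile of its mean log2 value among all 14506 genes, coloured by class; black lines, median residual SD of all genes in each bin of 20 percentiles. In the highest bin the members' median of 0.49 lies above the 0.13 of all genes.

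This spread was shared between members. Differentiated replicate 2 was the highest of its group in 34 of 44 members (77.3%), against 37.7% of all genes, and in 18 of the 22 pan-macrophage genes. Its pan-macrophage genes lay a median of 0.43 above the mean of their group, while those of differentiated replicates 1 and 3 lay at -0.15 and -0.25. In the arrays labelled undifferentiated, replicate 1 was the highest in 28 members (63.6%), against 32.3% of all genes, and replicate 3 the lowest in 35 (79.5%), against 30.1%. The median deviations of the pan-macrophage genes there were 0.26, 0.05 and -0.27. Over all genes the same medians stayed between -0.02 and 0.01 in the 6 arrays; how the arrays were scaled to each other is unknown.

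Other gene lists moved with that array to different degrees. In differentiated replicate 2 the median deviation was 0.21 over 34 other myeloid genes and 0.36 over 7 glomus cell genes, and between -0.01 and 0.12 over the lists of lymphocytes, neutrophils, mast cells, dendritic cells and endothelium. Whether a difference in cell content underlies the spread was not tested.

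**Figure D4:**
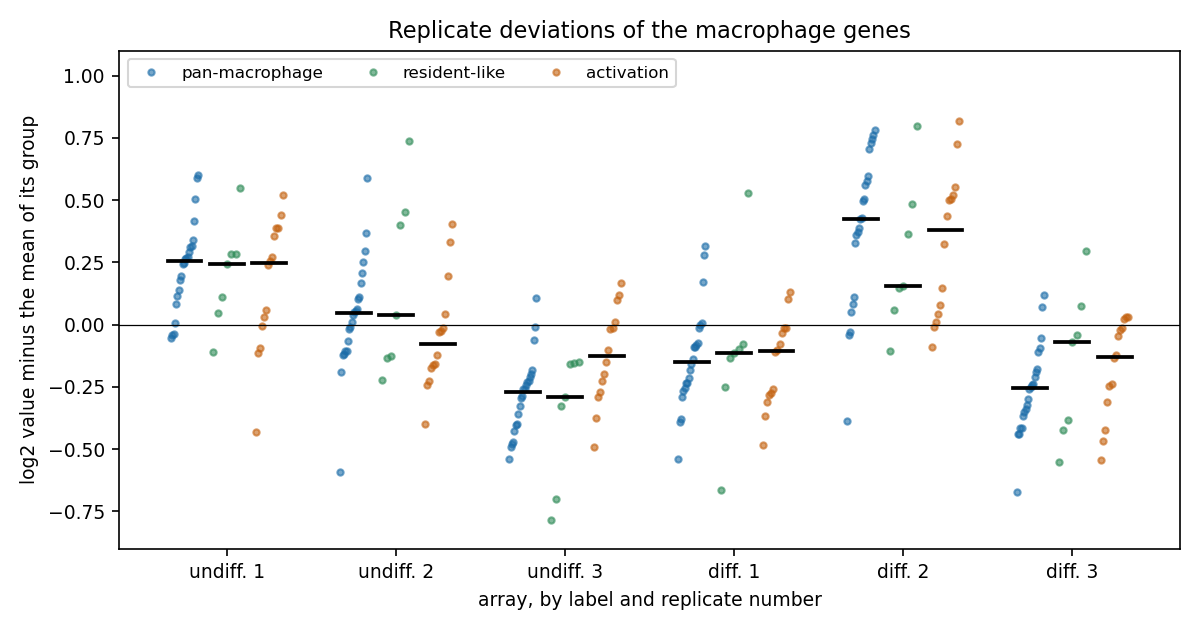
Log2 value minus the mean of its group for each pan-macrophage, resident-like and activation gene in each array; black bars, median of the class in that array. In differentiated replicate 2 the pan-macrophage median is 0.43, and in undifferentiated replicate 3 it is -0.27.

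The arrays kept in the comparison set the balance of directions. Without differentiated replicate 2, 3 members rose (background 13.7%) and 14 fell (background 14.1%), where all arrays gave 6 and 7. Without undifferentiated replicate 3, 14 changed (background 24.4%), of which 11 fell (background 12.4%). Without differentiated replicate 3, only 4 fell (background 12.8%). Of the 13 changed members, 7 passed with each array left out in turn, namely Tyrobp, Cd14 and Ccn3 as higher and Apoe, Arg1, Cd53 and Fcgr2b as lower. Among the 31 that did not pass, 14 passed with some array left out. The matching shares of all genes are not given here, so these counts do not set the members apart.

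**Figure D5:**
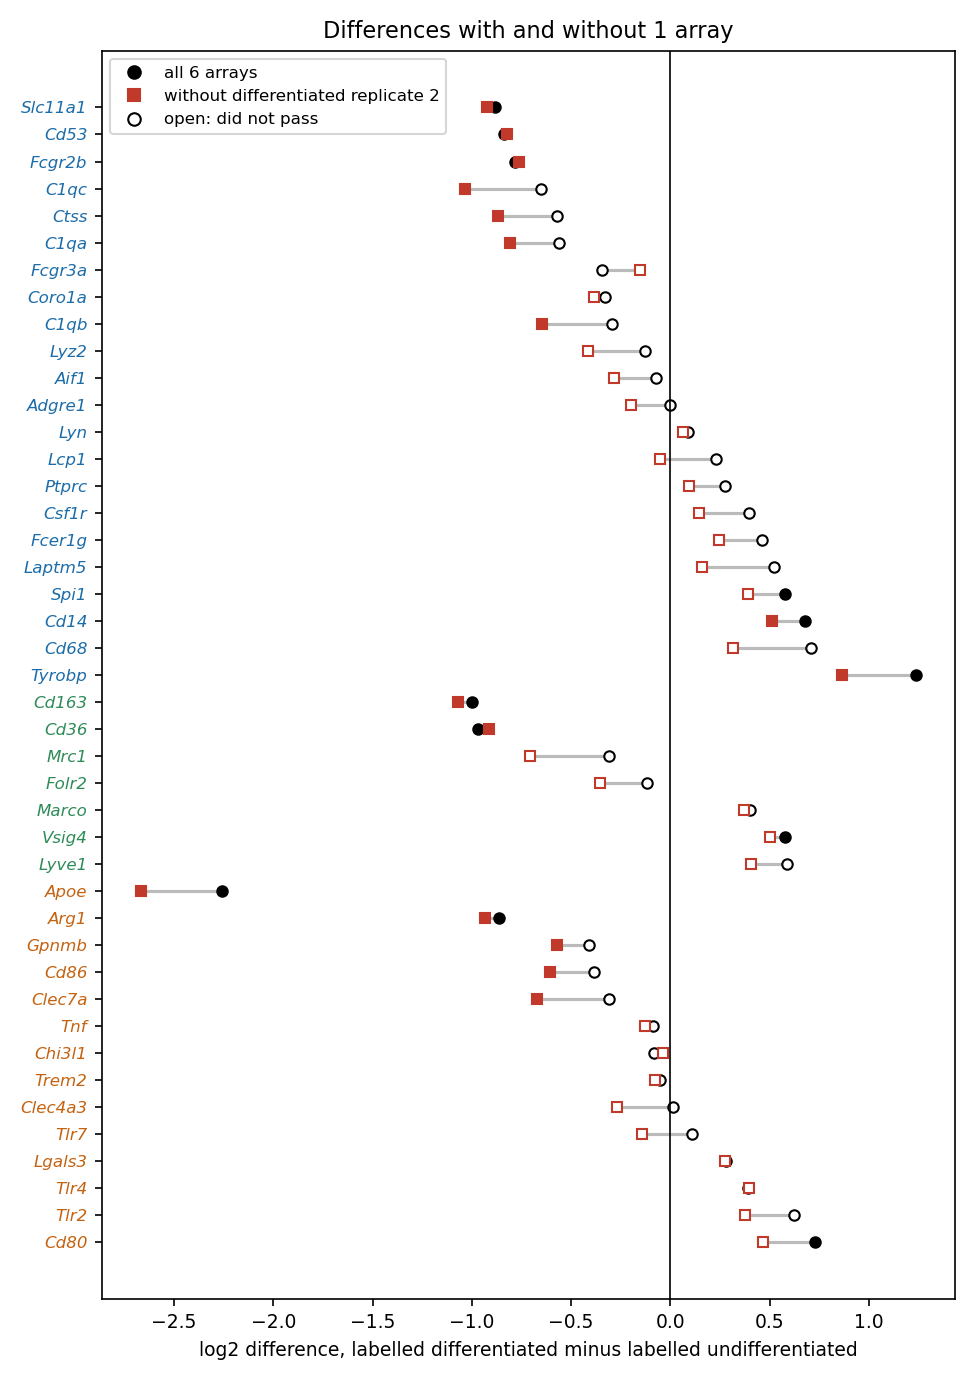
Log2 difference of each pan-macrophage (blue names), resident-like (green) and activation gene (orange) with all 6 arrays (black circles) and without differentiated replicate 2 (red squares); filled symbols passed at an adjusted p under 0.05. The C1q chains, Ctss, Gpnmb, Cd86 and Clec7a pass as lower without that array and not with it, and Spi1, Vsig4 and Cd80 pass with it and not without it.

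To see the members against a shared level, the array's median of the pan-macrophage genes, each centred on its own mean, was subtracted from every gene, leaving the gene itself out of the median. These medians were 0.15, 0.02 and -0.21 in the arrays labelled undifferentiated and -0.12, 0.47 and -0.24 in those labelled differentiated, so the shared level overlapped between the groups. After subtraction the spread within groups was smaller in 17 of the 22 pan-macrophage genes and in 29 of all 44 members, against 9.02% of all genes. The groups did not overlap in 25 members, 12 higher and 13 lower, where 20.1% of all genes had such groups on this scale. These were the 13 changed members and 12 others, while Tlr4, apart before the subtraction, overlapped after it. This is a description of members measured against each other, and no test was made. The level came from 22 of these members, so a gain for the members over all genes was partly built into the subtraction. It lowered the share of all genes with groups apart from 42.3% to 20.1%. The shares of all genes on this scale are therefore no independent background for the members.

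On that scale Csf1r read 8.45, 8.23 and 8.06 against 8.49, 8.72 and 8.69, with its SD within groups down from 0.41 to 0.16. Spi1 read 5.70, 5.48 and 5.53 against 6.21, 6.09 and 6.11, with its SD down from 0.31 to 0.09. Both then had all differentiated arrays on the upper side, as did Fcer1g, Laptm5, Lcp1, Cd68, Tyrobp, Cd14, Vsig4, Cd80, Tlr2 and Ccn3. C1qa, C1qc, Ctss, Gpnmb and Cd86 had all differentiated arrays on the lower side, with Cd53, Fcgr2b, Slc11a1, Coro1a, Cd163, Cd36, Apoe and Arg1. Among the members that still overlapped were C1qb, Mrc1, Folr2, Lyz2, Aif1, Ptprc and Adgre1. In Cd53 the subtraction widened the spread, from 0.18 to 0.32, since Cd53 did not share the high value of differentiated replicate 2.

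A wider list of 34 other macrophage and myeloid genes gave 5 that rose (background 14.7%) and 7 that fell (background 14.9%), with a median of -0.05. Among them Cd74, the invariant chain of class II antigen presentation, read 8.21, 8.97 and 7.92 against 5.84, 5.95 and 5.39 and fell by 2.64 ± 0.24 (SE, limma adjusted p = 8.96e-06). Cybb, the catalytic subunit of the phagocyte oxidase, read 9.31, 9.02 and 8.77 against 7.72, 8.09 and 7.50 and fell by 1.27 ± 0.16 (limma adjusted p = 0.000147). Both were clearly apart between the groups. The 5 genes of the wider list that rose were Maf, Cyba, Runx1, Axl and Tmem119. Which cells of the spheres carried the genes of this list was not tested. Of the 22 pan-macrophage genes, 3 rose (background 14.7%), 3 fell (background 14.9%) and 16 did not pass, Ptprc and Csf1r among the last. The differences of Cd74 and Cybb from these genes were not tested.

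P2ry12 and Tmem119, both used as microglial markers in brain, moved in opposite directions. P2ry12 read 9.99, 10.09 and 9.97 against 6.84, 6.82 and 6.23 and fell by 3.39 (limma adjusted p = 6.78e-08). Tmem119 read 8.09, 7.65 and 7.87 against 9.43, 9.48 and 9.54 and rose by 1.62 (limma adjusted p = 1.66e-06). Neither had the high differentiated replicate 2 of the pan-macrophage genes. Which cells of the spheres carried these 2 transcripts was not tested.

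Of 9 macrophage growth factors and other ligands, 4 rose (background 14.7%) and 2 fell (background 14.9%). Cd200, among those that rose, and Cd47, among those that fell, are neither growth factors nor ligands of recruitment. Besides Csf1 and Il34, the chemokine Ccl7 read 4.85, 4.90 and 5.10 against 7.04, 6.82 and 6.93 and rose by 1.98 ± 0.12 (SE, limma adjusted p = 5.06e-07). A list of 16 genes held lysosomal genes not particular to macrophages and the transcription factors Tfeb and Mitf. Of these, 2 rose, Ctsl and Mitf (background 14.7%), and 10 fell (background 14.9%), with a median of -0.60 beside 0.06 over all genes. Hexa, a subunit of beta-hexosaminidase, fell by 1.27, and the lysosomal membrane proteins Lamp1 and Lamp2 by 0.84 and 0.78 (limma adjusted p of 2.19e-06, 0.000135 and 0.00014). Of the macrophage lysosomal genes Slc11a1 fell too, while Ctss and Cd68 did not pass. The part of the wider fall in that of Slc11a1 was not tested.

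Marker lists of other leukocytes had low mean values, although single genes such as Lcn2 did not. Of 12 lymphocyte genes 0 passed (background 29.5%). The list's mean log2 value ranged from 3.68 to 3.94 in the arrays labelled undifferentiated and from 3.65 to 3.84 in those labelled differentiated. Lck, a T cell kinase, had the smallest p there (-0.38, limma adjusted p = 0.0661). Of 8 mast cell genes 0 passed (background 29.5%), with list means of 2.80 to 2.92 against 2.97 to 3.01. Hdc had the smallest p there and differed by 0.41, and 5 of the 8 genes were below the lower quartile in all arrays. Of 6 dendritic cell genes 0 passed (background 29.5%), with list means of 4.12 to 4.37 against 4.41 to 4.44. Zbtb46 had the smallest p there and differed by 0.34.

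Of 8 neutrophil genes 1 fell (background 14.9%), Lcn2, a lipocalin that many epithelia also make, by 3.93 (limma adjusted p = 3.53e-07). In 4 of the 8 all arrays were below the lower quartile, S100a8 and S100a9 among them. Of 8 endothelial genes 1 rose (background 14.7%) and 1 fell (background 14.9%), with list means of 4.89 to 4.92 against 4.74 to 4.81. Pdpn rose by 0.44 (limma adjusted p = 0.017), Cldn5 fell by 2.31 (adjusted p = 4.61e-06) and 6 did not pass. All 7 glomus cell genes measured fell (background 14.9%), among them Ddc by 3.25, Th by 2.86 and Slc18a1 by 2.54 (limma adjusted p of 1.06e-07, 5.09e-07 and 2.81e-07). Their list mean ranged from 10.71 to 10.86 against 7.57 to 8.30. Over the pan-macrophage genes the list mean ranged from 6.79 to 7.31 against 6.80 to 7.45. The pan-macrophage ranges overlapped and those of the glomus genes did not, and whether the share of macrophages among the cells changed was not tested.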

How the data were processed

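RNA of 6 neurosphere samples, from 100 ng of total RNA each per the labels' protocols, was hybridised to Affymetrix arrays, 1 sample per array; their number limits the precision. The deposited table holds log2 values, as the authors deposited them, for 29214 probe sets; the base was inferred from their range. How background was corrected, arrays normalized and with which software no source used here tells; values were used as deposited. The platform's probe table listed 15633 probe sets, 15310 with 1 gene symbol. The probe set of highest mean represented each gene. All arrays were fitted together with limma 3.58.1 under R 4.3.3 (lmFit, eBayes with a mean-variance trend, no block), two-sided, with Benjamini-Hochberg adjustment over 14506 genes at 0.05. An exact permutation test of 3 against 3 arrays cannot go below p = 0.1 and was not used. The fit was also tried on simulated data in which every gene varied independently. That trial does not cover spread shared between genes, as seen in the members. Alternatives tried were a block for replicate number, quantile or median scaling, a filter on dim genes, other choices of probe set, other eBayes settings, array weights and leaving out each array.

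Changed and resident-like members were given with every array's value, as were those of smallest p in each role; some further members, chosen with their values known, were given in the same way and the rest by difference. From each list of other genes the 3 changed genes of smallest p were named, or, with none, the gene of smallest p; Cd74, Cybb and Th were named in any case. The members, classes and lists were chosen with earlier results of these data known, and the subtraction of the pan-macrophage median, the promoter search and its words were chosen after seeing the data. Plots were made in Python 3.11.15 using matplotlib 3.10.9.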

Additional observations from a re-analysis of the deposited data

How the results depend on the processing

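Of 388 values of single members under 9 settings that kept all arrays, 373 kept their direction and their side of the threshold, 10 passed newly, 2 (both Spi1) no longer passed and 3 changed sign. The sign changes were Clec4a3 with each array centred on its median (-0.0179) and with array weights (-0.0869), and Chi3l1 with array weights (0.00782). The replicate number as a block gave 21 changed members, 10 higher and 11 lower, where it called 30.5% of all genes, with Laptm5, Fcer1g, C1qa, C1qc, Cd68, Ctss, Gpnmb and Tlr4 added to the 13. The labels do not say that numbers pair the arrays. The correlations of same-numbered deviations were 0.12, 0.12 and -0.00376, against -0.15 to 0.06 between other numbers, and 4 of the 6 arrays correlated best with their own number. When each array was left out, the count of changed members ran from 10 to 17, of higher members from 3 to 8 and of lower members from 4 to 14, where 24.4% to 27.8% of all genes were called. Signs changed in 11 members that did not pass with all arrays: Lcp1 (-0.0504 to 0.41), Aif1 (-0.28 to 0.14), Lyn (-0.00447 to 0.14), Adgre1 (-0.20 to 0.12), Lyz2 (-0.42 to 0.17), Folr2 (-0.36 to 0.0769), Trem2 (-0.19 to 0.17), Tlr7 (-0.14 to 0.35), Clec4a3 (-0.27 to 0.27), Chi3l1 (-0.30 to 0.0812) and Tnf (-0.20 to 0.00870). The cause was not tested. The filter on dim genes left 36 members and took out 8, namely Cd163, Vsig4, Fcgr3a, Lyve1, Marco, Tlr2, Tlr7 and Chi3l1. No detection call was given, so the distance of dim genes from background is unknown.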

Other observations

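The following genes of the wider lists were chosen after their values were seen, and no theme is drawn from them. Axl, a receptor for ligands that bridge phagocytes to dying cells, rose by 1.02 (limma adjusted p = 0.000224), while its ligand Gas6 fell by 1.00 (adjusted p = 9.06e-05). Mertk, the related receptor, differed by 0.22 and did not pass. Cd47, the surface signal that restrains phagocytes, fell by 0.58 (adjusted p = 0.000935), and its receptor Sirpa differed by -0.07 without passing. F13a1, a coagulation factor subunit made by resident macrophages among other cells, read 6.72, 6.27 and 6.15 against 3.86, 4.52 and 4.84 and fell by 1.97 (adjusted p = 7.67e-05).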
